A study of Homo sapiens with 22 samples.

Results

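The subject is a set of 990 RAD21 peaks that lay at the ends of protein-coding genes and overlapped no CTCF peak. A peak of the clone D7 DMSO list entered the set if it overlapped a clone A2 DMSO RAD21 peak by at least 1 bp, overlapped no CTCF peak of wild-type cells, and had its summit within 1 kb of either end of a RefSeq protein-coding gene (GRCh38.p14). The 990 were 3.12% of the 31719 DMSO peaks that the clones shared, and these were 84.4% of the 37566 clone D7 DMSO peaks. They were 31.2% of the 3176 shared peaks without CTCF, whereas 13.2% of the 28543 shared peaks with CTCF lay at a gene end. Members were thus selected on peak calls in the 2 DMSO RAD21 lists and the CTCF list, and their values in those lists are given as a description. Beside the 1 kb limit, the summits at POLD2, CAMTA1 and HEG1 lay 993, 997 and 997 bp from the gene end and were included; those at ATE1, KAT6B and LOC102724877 lay 1001, 1002 and 1005 bp away and were not.

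All libraries were ChIP-seq of hTERT RPE-1, human retinal pigment epithelial cells immortalised with telomerase. With 1 library in each group there is no replicate spread for any comparison, and no p-value is given. Wild-type cells were used for CTCF and for WAPL. Clone NIPBL-A2 has the genotype mCherry-P2A-FKBP12(F36V)-NIPBL and clone NIPBL-D7 the genotype mGreenLantern-P2A-FKBP12(F36V)-NIPBL: FKBP12(F36V) is a degron, a domain through which the small molecule dTAGV-1 sends the protein to degradation. RAD21 was precipitated from cycling, unsynchronised cells of each clone after DMSO for 24 h, dTAGV-1 for 4 h and dTAGV-1 for 24 h, with about 10% NIH/3T3 mouse cells as a spike-in. PDS5A was precipitated from clone D7 after DMSO for 24 h with the same spike-in, STAG1 and STAG2 from clone D7 with no treatment named in the labels, and the HA epitope from clone A2. Each clone is a single clone, both carry the tagged NIPBL in DMSO too, and clone and reporter cannot be told apart; NIPBL itself was not measured in these files. The titles of the inputs pair RAD21 with PDS5A in clone D7 DMSO, and STAG1 with STAG2, on 1 input each.

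Cohesin is a ring-shaped protein complex that holds DNA and extrudes it into loops. RAD21 closes the ring, STAG1 and STAG2 are alternative subunits bound to RAD21, and NIPBL stimulates the ATPase that loads cohesin and drives it along DNA. PDS5A and WAPL regulate its stay on DNA and its release, and CTCF, a DNA-binding zinc-finger protein, halts it at oriented sites. Active promoters are the other well-known class of genomic sites where cohesin and NIPBL are recovered, and many of these have RNA polymerase and no CTCF.

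Promoter sequences of 7 members show the kinds of DNA at which these peaks lay. Each is the 250 bp before the gene start in RefSeq (GRCh38.p14), read 5′ to 3′ on the gene's strand, with capitals marking matches to the motifs searched. ZBTB12, a zinc-finger and BTB-domain gene (chr6:31902087-31902336, minus strand), had the member with the highest fold enrichment and was in all 4 dTAGV-1 lists; its window holds 1 GC box (GGGCGG or its reverse complement), the letters bound by SP/KLF factors. CLIP2, a microtubule-linker gene (chr7:74289157-74289406, plus strand), and PTGFR, a prostaglandin F receptor gene (chr1:78490724-78490973, plus strand), were also in all 4 lists; CLIP2 has 8 GC boxes, and PTGFR has 1 and a YY1 motif.
ZBTB12: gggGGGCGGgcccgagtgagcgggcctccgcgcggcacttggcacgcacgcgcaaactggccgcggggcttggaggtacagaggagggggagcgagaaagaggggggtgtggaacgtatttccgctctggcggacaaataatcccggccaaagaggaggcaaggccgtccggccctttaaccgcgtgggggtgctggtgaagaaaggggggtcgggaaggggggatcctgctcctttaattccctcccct
CLIP2: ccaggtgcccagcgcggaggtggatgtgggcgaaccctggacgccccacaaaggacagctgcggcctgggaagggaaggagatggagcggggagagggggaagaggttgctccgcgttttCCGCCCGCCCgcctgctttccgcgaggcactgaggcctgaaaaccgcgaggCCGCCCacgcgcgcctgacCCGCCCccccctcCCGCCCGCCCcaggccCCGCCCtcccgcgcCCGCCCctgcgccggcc
PTGFR: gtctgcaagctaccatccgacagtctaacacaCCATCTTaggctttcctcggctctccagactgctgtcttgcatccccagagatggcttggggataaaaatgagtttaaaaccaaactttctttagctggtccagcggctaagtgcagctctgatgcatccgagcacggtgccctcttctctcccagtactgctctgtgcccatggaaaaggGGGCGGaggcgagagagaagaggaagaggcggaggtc
GJA1, a connexin gene of gap junctions (chr6:121435396-121435645, plus strand), and ID2, an inhibitor of basic helix-loop-helix factors (chr2:8681806-8682055, plus strand), had a peak in no dTAGV-1 list. The GJA1 window holds 1 CpG dinucleotide and 1 AP-1 motif, and that of ID2 holds 29 CpG dinucleotides, 2 GC boxes and 3 CCAAT boxes.
GJA1: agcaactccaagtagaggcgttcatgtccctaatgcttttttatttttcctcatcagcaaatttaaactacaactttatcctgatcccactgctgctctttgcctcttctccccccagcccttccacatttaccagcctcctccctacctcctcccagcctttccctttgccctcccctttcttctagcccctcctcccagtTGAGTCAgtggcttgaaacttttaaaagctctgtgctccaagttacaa
ID2: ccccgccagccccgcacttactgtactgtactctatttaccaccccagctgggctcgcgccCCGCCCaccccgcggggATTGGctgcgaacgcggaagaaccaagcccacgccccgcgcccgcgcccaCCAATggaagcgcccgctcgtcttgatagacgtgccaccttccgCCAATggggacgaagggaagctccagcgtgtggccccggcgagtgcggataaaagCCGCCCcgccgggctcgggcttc
DMAP1, a gene for a subunit of a chromatin-modifying complex (chr1:44213221-44213470, plus strand), shows 2 ETS motifs just before its start. CRACD, a regulator of actin dynamics (chr4:56048848-56049097, plus strand), is shown because its window matches the core letters of the CTCF motif, although the nearest CTCF peak lay 62722 bp away.
DMAP1: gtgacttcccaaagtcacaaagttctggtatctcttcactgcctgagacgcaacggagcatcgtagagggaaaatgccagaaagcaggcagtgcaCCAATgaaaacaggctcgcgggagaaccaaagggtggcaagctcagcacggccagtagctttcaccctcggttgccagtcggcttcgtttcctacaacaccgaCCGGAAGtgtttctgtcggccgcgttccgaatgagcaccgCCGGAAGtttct
CRACD: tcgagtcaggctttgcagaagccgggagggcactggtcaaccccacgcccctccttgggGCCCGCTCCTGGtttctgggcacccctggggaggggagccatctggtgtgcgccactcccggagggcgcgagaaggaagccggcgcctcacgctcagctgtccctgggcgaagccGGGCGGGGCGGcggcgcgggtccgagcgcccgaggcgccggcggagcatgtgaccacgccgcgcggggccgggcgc

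The members were almost all at gene starts. Strand and start were known for 807 members whose nearest end could be classed, and for 780 of these (96.7%, 95% Wilson interval 95.2 to 97.7) that end was the start; 27 lay at the gene's 3′ end, 1 was near both kinds of end, and for 182 the end was not classified. Of shared CTCF-overlapping peaks at gene ends, 80.3% lay at a start, a difference of 16.4 points (Newcombe 95% interval 14.3 to 18.1); over all shared gene-end peaks the share was 83.7%. All such intervals here cover counting error within these libraries only, and neighbouring peaks are not replicates. The side of the start differed as well. Members had their summit inside the gene in 70.0% of cases, with a median position of 114.5 bp past the start, whereas CTCF-overlapping peaks did so in 48.3%, with a median position of −13 bp. That difference was 21.7 points (17.9 to 25.4). Within 250 bp of the start lay 56.2% of the member summits. The start is here the outer end of the RefSeq gene record, and in some genes the start used for promoter windows differs from it. At FGGY the summit lay at 732 bp from the first and 16 bp from the second, and at EIF4G2 at 85 and −845 bp. The gap can be far larger: at CFAP97 the positions were 610 and −5638 bp, and at FRMD6 98 and −92599 bp. In those genes the promoter window lies well away from the peak.

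**Figure D1:**
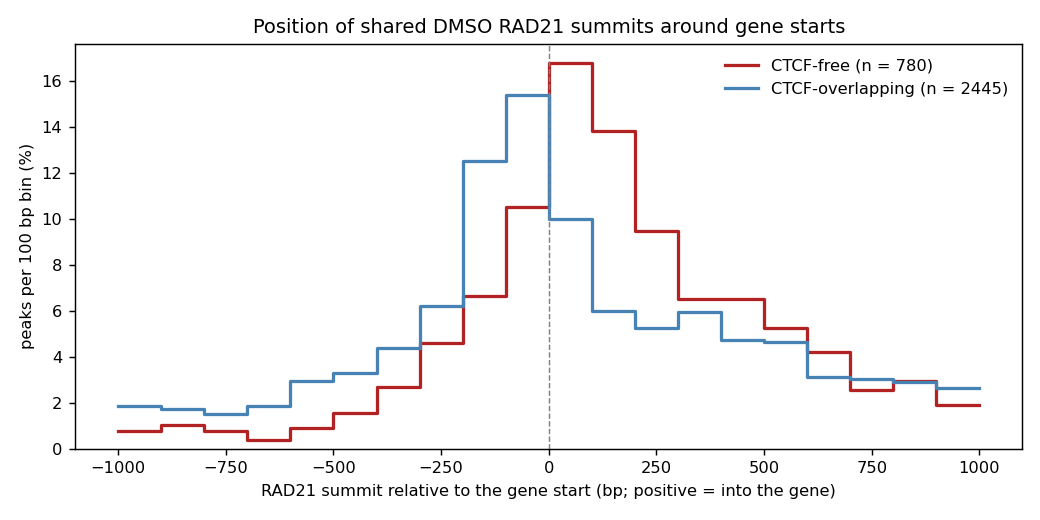
Share of RAD21 summits per 100 bp bin (y axis, percent) against their signed distance from the gene start (x axis, bp, positive into the gene), for the 780 members at starts and the 2445 CTCF-overlapping shared peaks at starts. The member curve is highest in the bin from 0 to 100 bp, with 16.8%, and the CTCF-overlapping curve in the bin from −100 to 0 bp, with 15.4%.

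The members were low in fold and broad. In clone D7 DMSO their median fold enrichment at the summit, as the authors deposited it, was 4.17 (quartiles 3.35 and 5.21), below 4.63 for CTCF-free peaks away from gene ends, 9.47 for CTCF-overlapping peaks at gene ends and 9.78 for the whole list. Their median width was 793 bp, against 597 bp for CTCF-free peaks elsewhere and 858 bp for CTCF-overlapping peaks at gene ends. The median summit held 33 fragments in clone D7 DMSO and 18 in clone A2 DMSO. For CTCF-free peaks elsewhere these were 32 and 18, so against them the members were lower in fold but not in fragments. CTCF-overlapping gene-end peaks held 58 and 36. The median −log10 q of members was 9.82 and 7.20, against 43.7 for CTCF-overlapping gene-end peaks in clone D7 DMSO. The nearest CTCF peak lay a median of 11605.5 bp away, and 126 members had one within 1 kb. Of the members, 876 (88.5%) fell in the lowest quartile of fold among shared DMSO peaks, which runs from 1.92 to 6.53, and comparisons below are therefore repeated inside that quartile.

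The share of members found after dTAGV-1 lay far apart in the clones. In clone D7, 72.7% of them (69.9 to 75.4) were overlapped by a RAD21 peak after 4 h and 42.1% (39.1 to 45.2) after 24 h, where the share over all shared peaks was 86.6% and 78.0%. In clone A2 only 39 of 990, 3.94% (2.89 to 5.34), were found after 4 h and 22.2% (19.7 to 24.9) after 24 h, against 69.3% and 75.4% of all shared peaks. So members were found less often than shared peaks as a whole in all 4 lists, the share fell with time in clone D7 and was higher at 24 h than at 4 h in clone A2. The lists also differ in size and depth: the 4 h list of clone D7 held 39059 peaks at a background pileup of 4.05, and that of clone A2 held 25763 at 3.16. When each dTAGV-1 list was limited to its 25763 most significant peaks, the same members were found in 18.8% and 11.4% in clone D7 at 4 h and 24 h, and in 3.94% and 9.90% in clone A2. In clone D7 these shares then differed from those of CTCF-free peaks elsewhere by −1.57 and −0.251 points. From CTCF-overlapping gene-end peaks the clone D7 share at 4 h differed by −52.5 points. A share over all shared peaks was not computed for the shortened lists.

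**Figure D2:**
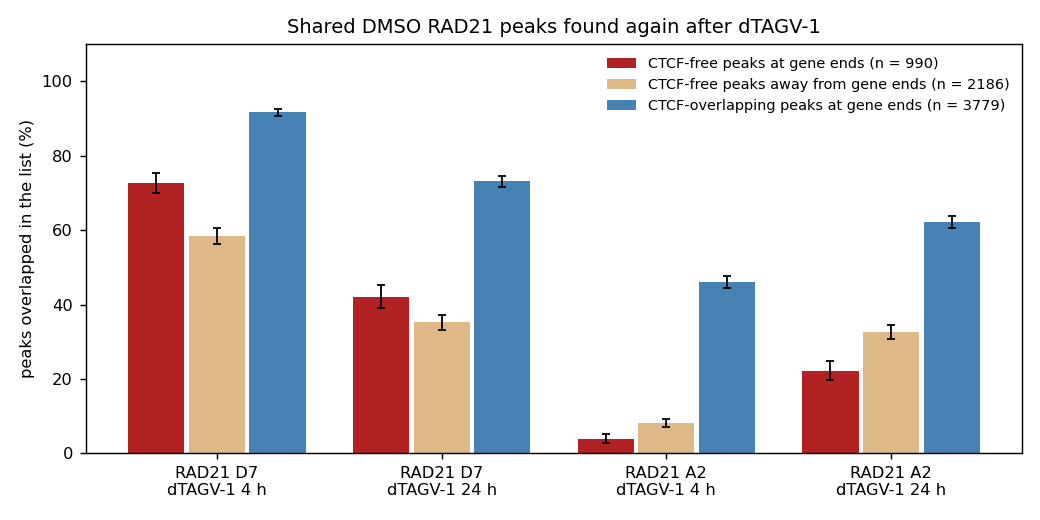
Share of shared DMSO RAD21 peaks (y axis, percent) overlapped by a peak of each dTAGV-1 RAD21 list (x axis), for members, CTCF-free peaks away from gene ends and CTCF-overlapping peaks at gene ends; bars give the share in 1 library and lines the 95% Wilson interval. Members stand at 72.7%, 42.1%, 3.94% and 22.2% from left to right, and below the CTCF-overlapping peaks in each list.

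CTCF-overlapping peaks at gene ends were found again far more often than the members, in 91.7%, 73.1%, 46.1% and 62.1% for clone D7 at 4 h and 24 h and clone A2 at 4 h and 24 h. The differences were −19.0 points (−21.9 to −16.1), −31.0 (−34.3 to −27.6), −42.1 (−44.0 to −40.0) and −39.9 (−42.8 to −36.8). They were smaller at like fold: matched on deciles of fold, an alternative chosen after seeing the data, the differences were −10.3, −5.66, −5.37 and −6.39 points. In the lowest quartile of fold at 4 h in clone A2, 2.51% of members (1.66 to 3.77) and 8.03% of CTCF-overlapping gene-end peaks (6.64 to 9.68) were found. CTCF-overlapping peaks of that quartile away from gene ends were found in 47.6% (46.0 to 49.1). CTCF-free peaks of that quartile away from gene ends were found in 5.82%. In that library, CTCF-overlapping peaks of the quartile away from gene ends were thus often found, and peaks of the other sets seldom. Members lie lower within the quartile, with 561 of them in the lowest decile. In that decile the shares were 1.07% of members, 3.48% of CTCF-free peaks elsewhere, 4.58% of CTCF-overlapping gene-end peaks and 43.9% of CTCF-overlapping peaks elsewhere. Both bands are of clone D7 DMSO fold, and fold in clone A2 DMSO was not matched. In clone D7 at 4 h the same quartile gave 70.8% of members, 83.4% of CTCF-overlapping gene-end peaks and 60.9% of CTCF-overlapping peaks elsewhere. At 24 h it gave 38.1%, 48.0% and 55.3% in clone D7 and 18.6%, 27.7% and 48.7% in clone A2.

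Against CTCF-free peaks away from gene ends, the sign of the difference went with the clone. These peaks were found in 58.5% and 35.2% in clone D7 at 4 h and 24 h, and the members differed from them by 14.3 points (10.7 to 17.7) and 6.94 points (3.29 to 10.6). In clone A2 they were found in 8.05% and 32.6%, and the differences were −4.11 points (−5.71 to −2.35) and −10.3 points (−13.5 to −7.03). Inside the lowest quartile of fold, members and CTCF-free peaks elsewhere were found in 70.8% and 56.0% at 4 h in clone D7, 38.1% and 31.8% at 24 h, 2.51% and 5.82% at 4 h in clone A2, and 18.6% and 27.7% at 24 h. The clone D7 differences at 4 h and 24 h kept their sign when matched on deciles of fold (15.3 and 9.02 points) and at equal background pileup (8.73 and 4.57). They also kept it in the 43 members left when all RAD21 lists were of equal length, at 19.0 points (1.42 to 33.9) and 16.8 points (−0.851 to 33.3). They were −2.77 and −2.43 points when a summit within 200 bp was required in place of any overlap, and −1.87 and 0.203 with stricter dTAGV-1 peaks. With the 990 members kept and only the dTAGV-1 lists brought to equal length, an alternative chosen after seeing the data, they were −1.57 and −0.251; the intervals of these last 6 differences included 0. Members are the broader peaks, with a median width of 793 bp against 597 bp. The clone A2 differences kept their sign under every alternative run, from −0.923 to −5.32 points at 4 h and from −6.38 to −13.5 at 24 h, but their intervals included 0 at 4 h with stricter clone D7 DMSO peaks (−2.65) and at both times in the 43 members left when all RAD21 lists were of equal length (−5.32 and −8.02).

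Over the 4 dTAGV-1 lists together, 221 members were in none, 350 in 1, 236 in 2, 158 in 3 and 25 in all 4. In none were 22.3% of members, against 29.1% of CTCF-free peaks elsewhere and 6.09% of CTCF-overlapping gene-end peaks, and in all 4 were 2.53%, against 4.35% and 42.3%. In 1, 2 and 3 lists were 35.4%, 23.8% and 16.0% of members. For CTCF-free peaks elsewhere these were 30.0%, 22.9% and 13.7%, and for CTCF-overlapping gene-end peaks 17.7%, 15.7% and 18.2%. Neither these shares nor the counts below were computed over all shared peaks. The largest class, with 307 members, was found only in the 4 h list of clone D7, and this class was not counted in the other sets. In clone A2 193 members were found at 24 h and not at 4 h, and 12 the other way round; in clone D7 43 were found at 24 h only and 346 at 4 h only. The other sets leaned the same way: CTCF-free peaks elsewhere numbered 585 at 24 h only and 49 at 4 h only in clone A2, and 130 and then 639 for clone D7; CTCF-overlapping gene-end peaks numbered 691 and 84, then 66 and 768. The number of lists went with fold and breadth: the median clone D7 DMSO fold was 3.76, 3.81, 4.41, 5.13 and 6.74 for members in 0, 1, 2, 3 and 4 lists, and the median width was 600, 714, 966.5, 1072 and 1341 bp.

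The cohesin subunits at the members were unequal. A STAG1 peak overlapped 78.5% of members (75.8 to 80.9), against 75.2% of all shared peaks, and a STAG2 peak overlapped 35 members, 3.54% (2.55 to 4.88), against 57.2%. STAG1 without STAG2 was found at 750 members (75.8%), both at 27, STAG2 without STAG1 at 8 and neither at 205. STAG1 without STAG2 was at 55.9% of CTCF-overlapping gene-end peaks, 29.6% of CTCF-free peaks elsewhere and 20.3% of CTCF-overlapping peaks elsewhere. It was thus the most frequent combination at CTCF-overlapping gene-end peaks too. Both subunits were at 31.2%, 18.8% and 55.3% in the same order. These combinations were not counted over all shared peaks. CTCF-free peaks away from gene ends had STAG1 in 48.4% and STAG2 in 38.6%, so the difference of the members from these was 30.1 points (26.7 to 33.3) for STAG1 and −35.0 points (−37.3 to −32.6) for STAG2. Both differences kept their sign in each of the 9 alternatives, from 16.5 to 32.4 points for STAG1 and from −40.0 to −17.6 for STAG2. CTCF-overlapping peaks at gene ends had STAG1 in 87.1% and STAG2 in 32.5%. For STAG1 the difference from these was −8.60 points (−11.5 to −5.92), but 3.80 points when matched on fold and 0.589 among clone D7 DMSO peaks of a −log10 q of at least 10. For STAG2 it was −29.0 points (−30.8 to −27.0), and −0.804 points when matched on fold.

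**Figure D3:**
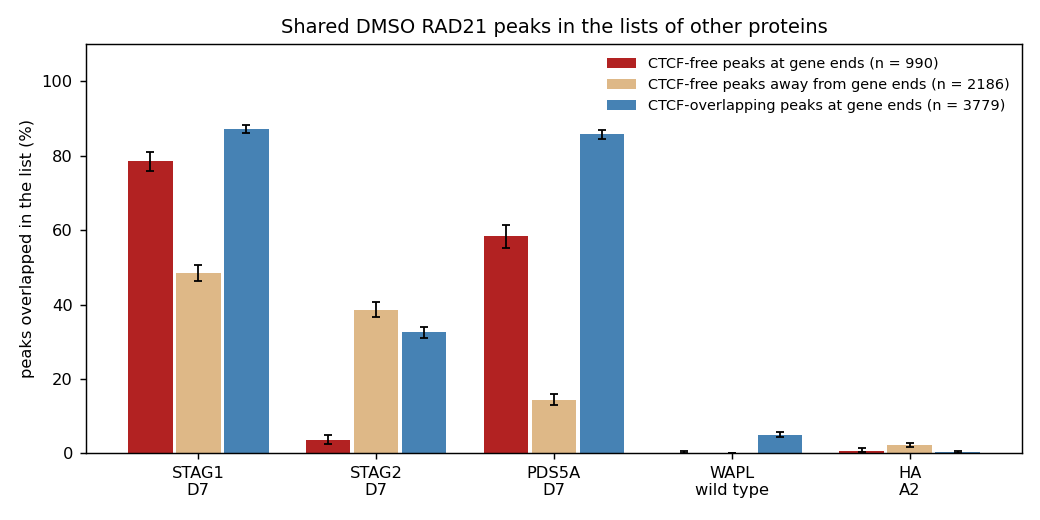
Share of shared DMSO RAD21 peaks (y axis, percent) overlapped by a peak of STAG1, STAG2, PDS5A, WAPL or HA (x axis, with the cells used), for members, CTCF-free peaks away from gene ends and CTCF-overlapping peaks at gene ends; lines give 95% Wilson intervals and each list is 1 library. Members reach 78.5% for STAG1 and 58.3% for PDS5A but 3.54% for STAG2.

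PDS5A, which binds cohesin through RAD21, was found at members nearly as often as at shared peaks as a whole. It overlapped 577 members, 58.3% (55.2 to 61.3), against 61.4% of all shared peaks, 14.4% of CTCF-free peaks away from gene ends and 85.7% of CTCF-overlapping peaks at gene ends. The members stood 43.9 points above the first of these (40.4 to 47.2) and differed from the second by −27.4 points (−30.7 to −24.2). STAG1 and PDS5A were both present at 478 members, STAG1 without PDS5A at 299, PDS5A without STAG1 at 99, and none of STAG1, STAG2 and PDS5A at 106. STAG1 and PDS5A together were thus at 48.3% of members, against 10.98% of CTCF-free peaks elsewhere, 77.5% of CTCF-overlapping gene-end peaks and 57.4% of CTCF-overlapping peaks elsewhere. The share with none of the 3 was 10.7%, against 28.4%, 3.57% and 10.996% in the same order. WAPL, whose list held 2667 peaks, overlapped 1 member (0.101%), against 8.26% of all shared peaks; the labels give the sample titled as the WAPL input the WAPL antibody too, so which library served as its background is uncertain. The HA list held 230 peaks, whose names in the file read HA-NIPBL, and overlapped 7 members, 0.707% (0.343 to 1.45), against 0.659% of all shared peaks; so short a list allows no finer comparison.

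In the lowest quartile of fold, where most members lie, the STAG and PDS5A pattern was shared by gene-end peaks with CTCF. STAG2 overlapped 1.71% of members and 3.73% of CTCF-overlapping peaks at gene ends, but 33.5% and 29.7% of CTCF-free and CTCF-overlapping peaks elsewhere. PDS5A overlapped 56.1% and 72.3% at gene ends, against 13.3% and 26.3% elsewhere. STAG1 overlapped 76.6% and 74.7% at gene ends, against 44.1% and 32.4% elsewhere. Among weak peaks, position at a gene end therefore separated these shares more widely than overlap with CTCF did. The STAG1, STAG2 and PDS5A libraries had background pileups of 1.77, 3.14 and 2.76 and different antibodies; what these contribute was not tested.

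**Figure D4:**
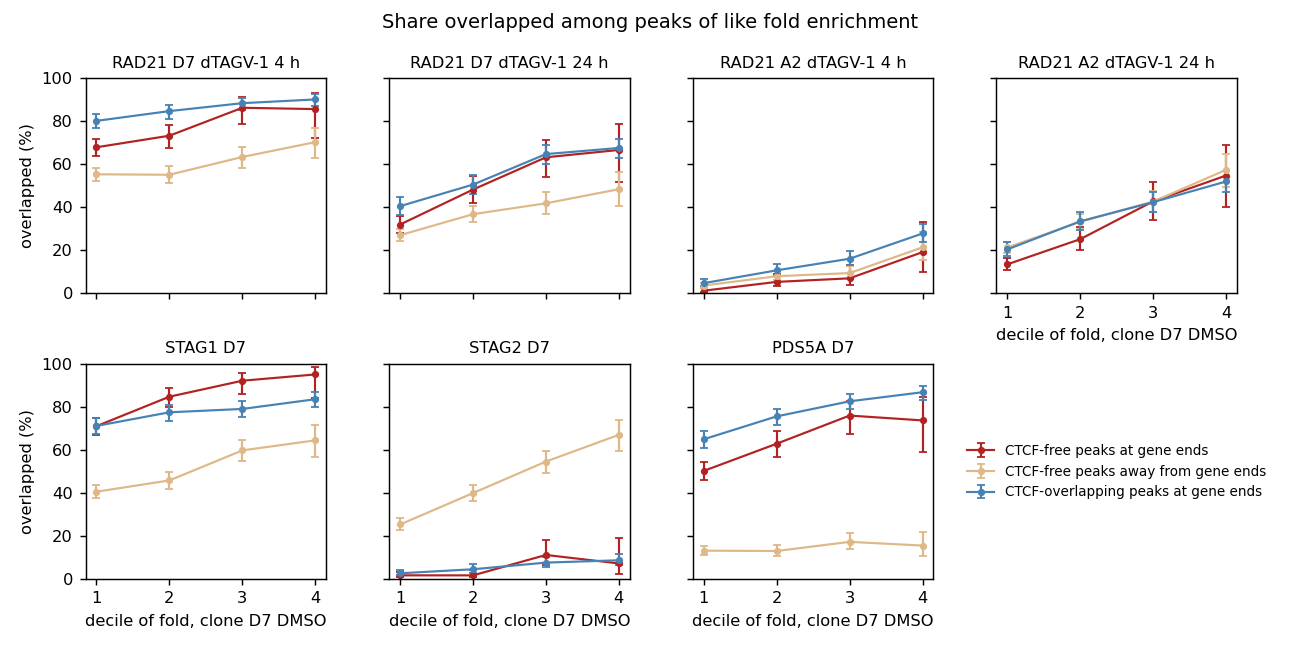
Share overlapped (y axis, percent) against the decile of fold in clone D7 DMSO (x axis, the lowest 4 deciles, which hold 971 of the 990 members), in 7 lists; points are shares in 1 library and lines 95% Wilson intervals. In the lowest decile STAG2 overlaps 1.60% of members, 2.56% of CTCF-overlapping gene-end peaks and 25.3% of CTCF-free peaks elsewhere.

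Members with STAG1 were found more often after dTAGV-1 than members without it. At 24 h in clone D7 the shares were 46.5% of 777 and 26.3% of 213, and at 24 h in clone A2 25.7% and 9.39%. Members with STAG1 were also stronger, with a median clone D7 DMSO fold of 4.39 against 3.49. Inside the lowest quartile the clone D7 shares were 42.2% of 671 and 24.9% of 205, and the median folds there still differed, at 4.15 and 3.46; the part of peak strength in this split was not tested. For PDS5A the split was narrower: 44.2% of the 577 members with it and 39.2% of the 413 without it were found at 24 h in clone D7, and 38.5% and 37.7% inside the lowest quartile. The 27 members at 3′ ends had STAG1 in 51.9% (34.0 to 69.3) and PDS5A in 29.6% (15.9 to 48.5), against 80.0% and 59.0% of the 780 at starts, with wide intervals for so few.

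Fold enrichments of named members are given in the order clone D7 DMSO, 4 h and 24 h, then clone A2 DMSO, 4 h and 24 h; each is the authors' value within its own list and folds of different lists are not compared. The ZBTB12 peak had folds of 33.8, 14.6 and 9.80, then 25.0, 4.52 and 8.81, with STAG1, STAG2 and PDS5A peaks of 11.1, 10.1 and 4.02. It was present in every RAD21 list and is 1 of the 27 members with both STAG subunits. CLIP2 had 11.7, 5.83 and 5.75, then 12.6, 2.38 and 5.24, with STAG1 and PDS5A but no STAG2 peak. PTGFR had 9.42, 8.34 and 6.48, then 9.04, 2.62 and 2.78, with STAG1 at 5.67 and neither STAG2 nor PDS5A. CSF1, which encodes macrophage colony-stimulating factor, had 9.03, 11.98 and 9.03, then 7.77, 3.93 and 3.02. The fifth strong member in all lists was at FGGY, a carbohydrate kinase gene, with 11.9, 9.30 and 6.99, then 6.44, 2.77 and 4.33.

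Other strong members were missing from the 4 h list of clone A2. ZNF746, a zinc-finger gene, had 19.6, 21.9 and 9.35 in clone D7 and 37.8 in clone A2 DMSO, and no peak in either dTAGV-1 list of clone A2; its STAG1, STAG2 and PDS5A folds were 30.0, 6.97 and 33.5. DMAP1 had 12.3, 5.33 and 6.19 in clone D7 and 7.19 in clone A2 DMSO only. CRACD had 12.1, 18.4 and 7.17, then 13.8 in clone A2 DMSO and 11.02 at 24 h. CFAP97, a cilium-associated gene, had 15.9, 7.21 and 8.51, then 10.5 and, at 24 h, 3.43; TEAD1, a DNA-binding partner of the Hippo effectors YAP and TAZ, had 13.0, 5.18 and 4.38, then 13.3 and, at 24 h, 4.55. These last 3 members thus lacked a peak at 4 h and had one at 24 h in clone A2.

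Another 5 strong members were in no dTAGV-1 list of either clone, although in clone D7 DMSO the folds of all but CUX1 were near those of PTGFR and CSF1. GJA1 had DMSO folds of 9.50 in clone D7 and 8.52 in clone A2 and no peak of STAG1, STAG2 or PDS5A. SOX9, a developmental transcription factor gene, had 9.34 and 6.42 with STAG1 and STAG2 peaks. ID2 had 9.16 and 11.7 with STAG1 at 6.90 and PDS5A at 11.5. TBL1X, which encodes a subunit of a corepressor complex, had 8.90 and 7.72 with STAG1, and CUX1, a homeobox gene, had 7.96 and 3.68 with STAG1 at 37.5. The CUX1 summit lay 700 bp inside the gene, and a CTCF peak began 479 bp from the RAD21 peak.

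The strongest of the 8 members with STAG2 and no STAG1 were at GLIPR1, FRMD6 and TPRG1, with STAG2 folds of 5.30, 9.98 and 5.55. FRMD6 encodes a scaffold protein of the Hippo pathway. None of the 3 had a PDS5A peak, and all 3 were present in clone A2 at 24 h, with RAD21 folds of 6.53, 5.49 and 4.70. That list held 57.1% of the 35 members with a STAG2 peak (40.9 to 72.0) and 22.2% of all members. Members with STAG2 were also stronger, with a median clone D7 DMSO fold of 6.67 against 4.15 without it. Inside the lowest quartile of fold, 6 of 15 members with STAG2 (19.8% to 64.3%) and 18.2% of 861 without it were in that list. The part of peak strength in this split was not tested. MYEOV, RBMS1 and TBL1X were the strongest members in the HA or WAPL lists, with HA folds of 5.93, 5.96 and 6.00 and no WAPL peak. The highest HA fold at a member, 19.3, was at EEF1A1, the gene of a translation elongation factor with many processed copies in the genome, and was picked after its value was seen. The widest members, at LOC124900214, RAP2B and DUSP6, spanned 4127, 4098 and 4046 bp.

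**Figure D5:**
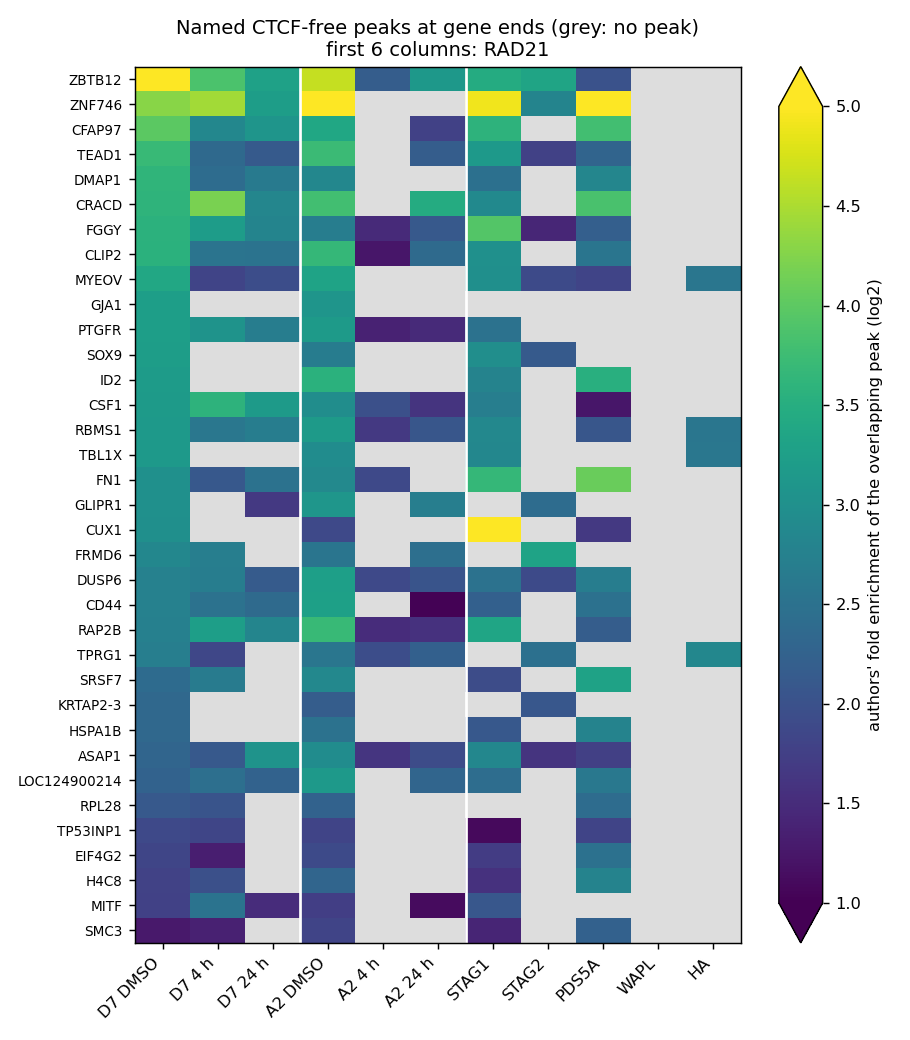
Fold enrichment deposited by the authors (colour, log2 scale) of the peak that overlaps each of 35 named members (rows, by gene, in order of clone D7 DMSO fold) in 11 lists (columns); grey means that no peak overlaps. Most rows are grey for STAG2, WAPL, HA and clone A2 at 4 h and coloured for STAG1, and the row of GJA1 is coloured only in the DMSO columns.

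By function, members lay at a broad range of genes. They were at 1081 of 19974 protein-coding genes, 5.41%, and 112 members lay near more than 1 gene. Of extracellular matrix and TGF-β genes 7 of 32 had a member: FN1 (fibronectin), TIMP3, TNC, LAMB1, LOXL2, FSTL1 and VCAN. The FN1 peak had folds of 8.02, 4.28 and 5.66 in clone D7 and of 7.39 and 3.67 in clone A2 DMSO and at 4 h, and its PDS5A fold was 16.9; TIMP3 and FN1 were the members of this list found at 4 h in clone A2. TNC, which encodes tenascin C, was found at both times in clone D7 and at 24 h in clone A2. Of AP-1 and immediate-early genes 6 of 34 had one: DUSP6, ZFP36L2, NR4A2, FOS, IER3 and JUNB. DUSP6, which encodes a phosphatase of ERK kinases, had a member at each end; the one near its start was in all 4 dTAGV-1 lists, with folds of 6.48, 4.43, 3.67 and 4.11, and the one near its 3′ end was in the 24 h list of clone A2 alone. FOS, an AP-1 subunit gene, had folds of 4.32, 3.33 and 3.33 in clone D7 and was in neither dTAGV-1 list of clone A2.

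Actin and adhesion genes had a member in 6 of 39 cases: CD44, CNN2, ANXA2, ITGB1, TPM2 and ACTN4. CD44, a hyaluronan receptor gene, had folds of 6.74, 5.68 and 5.20, then 9.72 in clone A2 DMSO and 2.04 at 24 h, whereas ITGB1, an integrin gene, was found after dTAGV-1 at 4 h in clone D7 alone. YAP and TEAD target genes had one in 3 of 22, at ASAP1, DOCK5 and ANKRD1. A CTCF-overlapping RAD21 peak lay at an end of 19 of these 22, against 20.4% of all protein-coding genes. The same count was 14 of 32 matrix genes, 17 of 34 AP-1 genes and 13 of 39 actin genes. ASAP1 was in all 4 dTAGV-1 lists, DOCK5 in the 4 h list of clone D7 and ANKRD1 in none. Wilson intervals for the matrix list (11.02% to 38.8%) and the AP-1 list (8.35% to 33.5%) lie above 5.41%, and that of the actin list (7.25% to 29.7%) does too; the lists were chosen with earlier results of these data known, so nothing is read from this.

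Among housekeeping and stress genes the counts were small. Ribosomal protein genes had one in 5 of 79, at RPL28, RPL21, RPS13, RPL31 and RPL30, none of which was in a dTAGV-1 list of clone A2 or in the 24 h list of clone D7. Translation genes had 3 of 23 (EIF4G2, EEF1A1, EIF3A) and heat-shock and oxidative-stress genes 3 of 26 (HSPA1B, HSP90AA1, TXN), of which the last 3 were in no dTAGV-1 list. HSPA1B has a near-identical neighbour, and how reads that map to both were handled is not given in the sources used here. SRSF7 and POLR2E were 2 of 30 RNA polymerase and splicing genes, TP53INP1 was 1 of 35 p53 and cell-cycle genes, and SMC3, itself a cohesin subunit, was 1 of 17 cohesin genes. MITF, a transcription factor of pigment cells, was 1 of 21 retinal pigment epithelium genes; its folds were 3.40, 5.74 and 2.85 in clone D7 and 3.36 in clone A2 DMSO and 2.17 at 24 h. Among gene families, 26 of 510 ZNF genes, 1 of 69 replication-dependent histone genes (H4C8), 1 of 94 keratin-associated protein genes (KRTAP2-3) and 0 of 392 olfactory receptor genes had a member.

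Promoters of member genes were rich in G+C and CpG. Of the genes with a member near their start, 831 had a RefSeq promoter window from 250 bp before to 50 bp after the start, and these had a median G+C of 68.3% and a CpG observed-to-expected ratio of 0.864. All 15812 windows had 62.7% and 0.763, those with a CTCF-overlapping RAD21 peak 67.7% and 0.852, and those with no RAD21 peak in either DMSO list 60.0% and 0.658. Member promoters thus resembled CTCF-overlapping ones in base composition more than those without RAD21. Motifs were searched on both strands, and a match is a run of letters, not a bound site. A GC box (GGGCGG) was in 78.3% of member windows against 58.5% of all windows, and the difference from CTCF-overlapping ones, with 74.3%, was 4.00 points (0.635 to 7.19). The ETS motif (CCGGAAG) was in 19.0% against 14.2%, and NRF1 (by name) in 11.2% against 8.59%. The TATA box (TATAAA) was in 4.69% against 9.64% and the TEAD motif (GGAATG) in 9.03% against 11.7%. For ETS, NRF1, TATA and TEAD the differences from CTCF-overlapping promoters were 2.04, 0.0846, −0.543 and −1.92 points, with intervals that included 0.

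The core letters of the CTCF motif were in 14 of the 831 member windows, 1.68%, against 2.69% of all windows and 5.32% of windows at CTCF-overlapping RAD21 peaks. The difference from the last was −3.63 points (−4.79 to −2.25), and CTCF peaks were part of the rule. AP-1 (TGANTCA) was in 4.81% of member windows against 5.76% of all, the CCAAT box (CCAAT) in 34.9% against 36.3%, and the E-box (CACGTG) in 9.63% against 8.87%. CRE (TGACGTNA), YY1 (AAGATGG) and ZBTB33 (CTCGCGA) were in 4.45%, 6.86% and 4.57%, against 3.90%, 6.40% and 3.25%. For the CTCF core, AP-1, CCAAT, E-box, CRE and YY1 the interval of the difference from all other promoters included 0. Motifs rich in G+C are more frequent in any G+C-rich window, and windows were not matched for it. Genes with a member near their start had a median length of 48.9 kb, against 35.6 kb with a CTCF-overlapping peak and 25.6 kb over all, and 10.8% had another gene starting head to head within 1 kb, against 10.2% of all.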

How the data were processed

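The files were 12 peak lists in narrowPeak layout, 1 per immunoprecipitation, from 22 labelled samples; the 10 inputs were not analysed on their own. The submitters' processing notes name BWA, Picard, SAMtools, bedtools, deepTools and MACS2, and the builds hg38 and mm10, without versions or roles. Each file deposited a score, a fold (a ratio of the summit over local background), a −log10 p and a −log10 q per peak, as the authors made them, and the summit offset. Peak names in the files carry a q limit of 0.001 for CTCF and 0.01 for the others. A fold is used only within its list.

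Overlaps of at least 1 bp, Wilson and Newcombe 95% intervals (scipy 1.17.1, Python 3.11.15) and gene ends from RefSeq GRCh38.p14 (19974 protein-coding genes; strand and start for the 15812 with a promoter entry) were computed here. Pileups came from the deposited fold and −log10 p taken as Poisson, with 1 added above and below the line of the fold; they were whole within 0.05 in 11 lists and not for HA, which has no background value here. Read totals are not used here; the lowest background pileup served as depth, and ran from 1.77 to 4.05 outside CTCF (13.4) and HA. No spike-in scaling was applied, so a global gain or loss of RAD21 with the same peaks called goes unseen.

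The members and gene lists were chosen with earlier results of these data known. Named members are the 8 with the highest clone D7 DMSO fold, the 5 highest in all 4 dTAGV-1 lists, the 5 in none, the 3 with STAG2 and not STAG1, the 3 in WAPL or HA, the 3 widest, and the highest of each of 15 gene lists. The overlap and pileup code was tested on simulated data. Alternatives are described in the closing section.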

Additional observations from a re-analysis of the deposited data

Results flagged for a closer look

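The contrasts that follow moved opposite ways in the clones; with 1 library per condition the difference between clones was not tested. The share of CTCF-free gene-end peaks found after dTAGV-1, less that of CTCF-free peaks away from gene ends, was 14.3 points at 4 h and 6.94 points at 24 h in clone D7, but −4.11 points at 4 h and −10.3 points at 24 h in clone A2. The clone D7 differences were −2.77 and −2.43 with summits within 200 bp, and −1.87 and 0.203 with stricter dTAGV-1 peaks. They were −1.57 and −0.251 with the same members and dTAGV-1 lists of equal length. All these intervals included 0, and in the other alternatives run the sign was kept. From 4 h to 24 h, the share of CTCF-free gene-end peaks found changed by −30.6 points in clone D7 and by 18.3 points in clone A2. With dTAGV-1 lists of equal length it went from 18.8% to 11.4% and from 3.94% to 9.90%. The other peaks moved the same way in each clone: CTCF-free peaks away from gene ends went from 58.5% to 35.2% in clone D7 and from 8.05% to 32.6% in clone A2, CTCF-overlapping gene-end peaks from 91.7% to 73.1% and from 46.1% to 62.1%, and all shared peaks from 86.6% to 78.0% and from 69.3% to 75.4%.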

How the results depend on the processing

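Of 306 values recomputed under alternatives, 243 were counted as the same and 47 as moved. Another 6 lost and 3 gained an interval that excludes 0, and 7 changed sign where the main interval excluded 0. A difference whose interval included 0 before and after was counted as the same whatever its sign. The HA difference from CTCF-overlapping gene-end peaks, for example, went from 0.416 to −0.00484 points with stricter peaks. No paired analysis was possible because each group held 1 library and the labels give no replicate numbers; no library could be left out for the same reason. The lists for gene-end windows of 0.5 and 2.5 kb and for no CTCF peak within 1 kb gave counts and shares near the main ones, except that the HA difference from CTCF-overlapping gene-end peaks was 0.492 points with the 0.5 kb window and that genes of the fixed AP-1 list numbered 10 and of the p53 list 3 with the 2.5 kb window. Values below run in the order clone D7 4 h and 24 h, clone A2 4 h and 24 h, and STAG1, STAG2, PDS5A, WAPL and HA; differences are in points.

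With clone D7 DMSO peaks of a −log10 q of at least 10, 483 members remained, found in 81.6%, 56.1%, 7.87% and 34.8% of cases after dTAGV-1 and with STAG1, STAG2, PDS5A and WAPL in 90.5%, 5.80%, 67.1% and 0%; the difference from CTCF-free peaks elsewhere in clone A2 at 4 h was −2.65, and from CTCF-overlapping gene-end peaks it was 0.589 for STAG1 and 0.915 for HA. With DMSO summits of the clones within 200 bp, the members numbered 598 and WAPL overlapped 0%, as it did starting from clone A2. Counting only summits within 200 bp gave 44.3%, 25.7%, 2.63% and 14.5% found, and 54.2%, 2.02% and 34.9% for STAG1, STAG2 and PDS5A; differences from CTCF-free peaks elsewhere were −2.77 and −2.43 in clone D7, and the HA difference from CTCF-overlapping gene-end peaks was 0.346.

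With dTAGV-1 peaks of a −log10 q of at least 10 the shares were 27.8%, 10.4%, 0.404% and 6.26%, and the clone D7 differences from CTCF-free peaks elsewhere −1.87 and 0.203. With all RAD21 lists cut to 25763 peaks only 43 members remained, found in 72.1%, 53.5%, 23.3% and 51.2%, with differences from CTCF-free peaks elsewhere of 19.0 (1.42 to 33.9) and of 16.8, −5.32 and −8.02, the last 3 with intervals that included 0. Keeping the 990 members and cutting only the dTAGV-1 lists, chosen after seeing the data, gave 18.8%, 11.4% and, in clone A2 at 24 h, 9.90%, and clone D7 differences of −1.57 and −0.251. At equal background pileup the first 3 shares were 59.2%, 37.2% and 2.56%. With stricter peaks of the other proteins the shares were 42.5%, 1.52%, 21.7%, 0% and 0.101%, and the HA difference from CTCF-free peaks elsewhere −0.265. Matched on deciles of fold, also chosen after seeing the data, differences from CTCF-overlapping gene-end peaks were −10.3, −5.66, −5.37 and −6.39 after dTAGV-1 and 3.80, −0.804, −13.0 and −0.289 for STAG1, STAG2, PDS5A and WAPL, and that of STAG2 from CTCF-free peaks elsewhere −31.6. The cause of these changes was not tested.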
